A study of Mus musculus with 2 samples.

Results

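The part of the data described here is *Slc7a11* together with 9 further genes of cystine uptake, glutathione synthesis and the defense against lipid peroxidation: *Slc3a2*, *Gclc*, *Gclm*, *Gpx4*, *Acsl4*, *Hmox1*, *Nqo1*, *Txnrd1* and *Srxn1*. The 10 genes were taken by name, for their place in this pathway, and all 10 were found among the 31053 genes of the count tables. They were followed in all cells of each library and in cell sets defined by marker UMIs, which were not drawn from the authors' clusters.

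*Slc7a11* encodes xCT, the light chain of the transporter that brings cystine into cells, and published work in tumor cells placed it among the genes repressed by the deubiquitinase BAP1. Cystine is reduced to cysteine, which limits the synthesis of glutathione, and glutathione peroxidase 4 uses glutathione to reduce lipid hydroperoxides. Loss of this defense leads to ferroptosis, a form of death driven by iron and peroxidized lipids.

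The study removed *Bap1* from limb mesenchyme and profiled fibroadipogenic progenitors (FAPs) by droplet 3′ single-cell RNA-Seq. Limb muscle came from 3-week-old mice on the C57BL/6J background that were either Bap1f/f (labelled *Bap1* WT) or Prx1-Cre;Bap1f/f (labelled *Bap1* ΔMPC), and 1 library of sorted 7AAD–Lin–Vcam–Sca1+ cells was made per genotype. Prx1-Cre is active across the mesenchyme of the limb, so in the limb as a whole the deletion was not limited to FAPs. Within limb muscle, the paper reports that FAPs alone carried a Prx1-Cre reporter. It also reports no disruption of *Bap1* in Schwann cells or muscle stem cells. The number of animals behind each library is not stated. With 1 library per genotype no difference below has a replicate check and none was tested. All intervals are 95% intervals that cover counting error only.

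The tables held 4103 cells with 51015705 UMIs in the *Bap1* WT-labelled library and 4378 cells with 49540066 UMIs in the *Bap1* ΔMPC-labelled library, and 5 barcodes were found in both. The median cell had 12232 UMIs and 3457 detected genes in the former and 11017.5 UMIs and 3313 genes in the latter. *Bap1* itself was not lower in the *Bap1* ΔMPC-labelled library: it had 897 UMIs (17.6 CPM) in the *Bap1* WT-labelled library and 1072 UMIs (21.6 CPM) in the other, a log2 ratio of 0.30 (interval 0.17 to 0.43). Counts of 3′ UMIs do not show which exons a transcript held, so the genotype of the libraries could not be read from this gene, and the libraries are named by their labels throughout. By measurements other than these libraries, the paper reports significant disruption of *Bap1* in FAPs of *Bap1* ΔMPC mice.

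The authors had removed cells high in markers of muscle-resident cells other than FAPs, so low or absent markers of other cell types partly reflect that filter. All 5 FAP markers of the list used were detected, with 16825 summed CPM in the *Bap1* WT-labelled library and 15106 in the *Bap1* ΔMPC-labelled library, most of it *Dcn* (13773 and 11632). Of 11 immune markers, *Ptprc* and *Adgre1* were at 0 in both libraries, and the list summed to 9.94 and 18.6 CPM, led by *Cd68* (3.53) in the former and *Lyz2* (6.80) in the latter. Endothelial markers summed to 82.5 and 112 CPM, nearly all from *Tek* (78.5 and 107), and mural markers to 30.5 and 27.2. Muscle markers summed to 27.2 and 12.7 CPM, mostly *Acta1*, with *Pax7*, *Myf5* and *Myod1* at 0 in both libraries. Schwann markers gave 4.45 and 3.67 CPM, erythroid markers 37.8 and 23.6, and adipocyte markers 0.216 and 5.98.

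Cells with at least 25 UMIs of *Pi16*, *Sema3c*, *Anxa3* and *Efemp1* per 10000 were called Dpp4-type: 1050 of 4103 cells (25.6%, interval 24.3% to 27.0%) in the *Bap1* WT-labelled library and 1251 of 4378 (28.6%, 27.2% to 29.9%) in the *Bap1* ΔMPC-labelled library. Cells below that cut with at least 5 *Cxcl14* UMIs per 10000 were called Cxcl14-type: 569 cells (13.9%, 12.8% to 14.96%) and 1020 cells (23.3%, 22.1% to 24.6%). The remaining 2484 and 2107 cells met neither rule. *Cxcl14* itself differed between the libraries (232 and 690.1 CPM in all cells, 1446 and 2807 in the Cxcl14-type set). Of the other markers of that population, *Smoc2* (2737 and 841.5), *Hsd11b1* (177 and 62.5) and *Crispld2* (174 and 72.5) were lower there in the *Bap1* ΔMPC-labelled library. *Col15a1* was not lower (1916 and 1961). The Cxcl14-type sets may thus hold different mixtures of cells, and neither their shares nor the ratios inside them compare a cell class shown to be the same. Markers also differed inside the Dpp4-type sets: *Pi16* had 3739 and 2534 CPM, *Cxcl14* 10.1 and 63.2, and mural markers 20.7 and 7.65. Dpp4-type cells with *Krt7* or *Plet1* numbered 34 and 281, so the same limit holds for this set. Levels are CPM of UMIs summed over the cells of a set, and for 3′ counts no transcript length was divided out. Whether detection is equal between genes was not tested, so levels of different genes compare counted UMIs only. Ratios are log2 of the CPM in the *Bap1* ΔMPC-labelled library over that in the *Bap1* WT-labelled library.

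All 10 genes had at least 20 UMIs in each cell set. None of the 10 passed 3-fold between the libraries in all cells or in Dpp4-type cells, and 1 (*Nqo1*, higher) did in Cxcl14-type cells. As background, 3.15% of 14729 tested genes were over 3-fold higher and 2.12% over 3-fold lower in the *Bap1* ΔMPC-labelled library in all cells, 1.89% and 1.63% of 12517 genes in Dpp4-type cells, and 3.52% and 1.82% of 12265 genes in Cxcl14-type cells. At the 2-fold cut the members called were 0 in all cells, 2 in Dpp4-type cells (*Slc7a11* and *Hmox1*, both higher) and 1 in Cxcl14-type cells (*Nqo1*). The matching background at 2-fold was 6.63% higher and 5.37% lower in all cells, 4.34% and 4.51% in Dpp4-type cells, and 6.92% and 4.84% in Cxcl14-type cells.

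Below these cuts, 9 of the 10 genes had a higher value in the *Bap1* ΔMPC-labelled library in each of the 3 sets, *Gclm* being the gene with the lower value. Among all tested genes, 60.7% were higher in all cells, 58.2% in Dpp4-type cells and 57.2% in Cxcl14-type cells. The median log2 ratio of the members was 0.44, 0.46 and 0.30 in these sets, beside 0.10, 0.07 and 0.07 for all tested genes. Summed over the 10 genes, the level was 691.5 CPM in the *Bap1* WT-labelled library and 886.5 in the *Bap1* ΔMPC-labelled library, and *Gpx4* alone made up 406.7 and 550.3 of these.

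**Figure D1:**
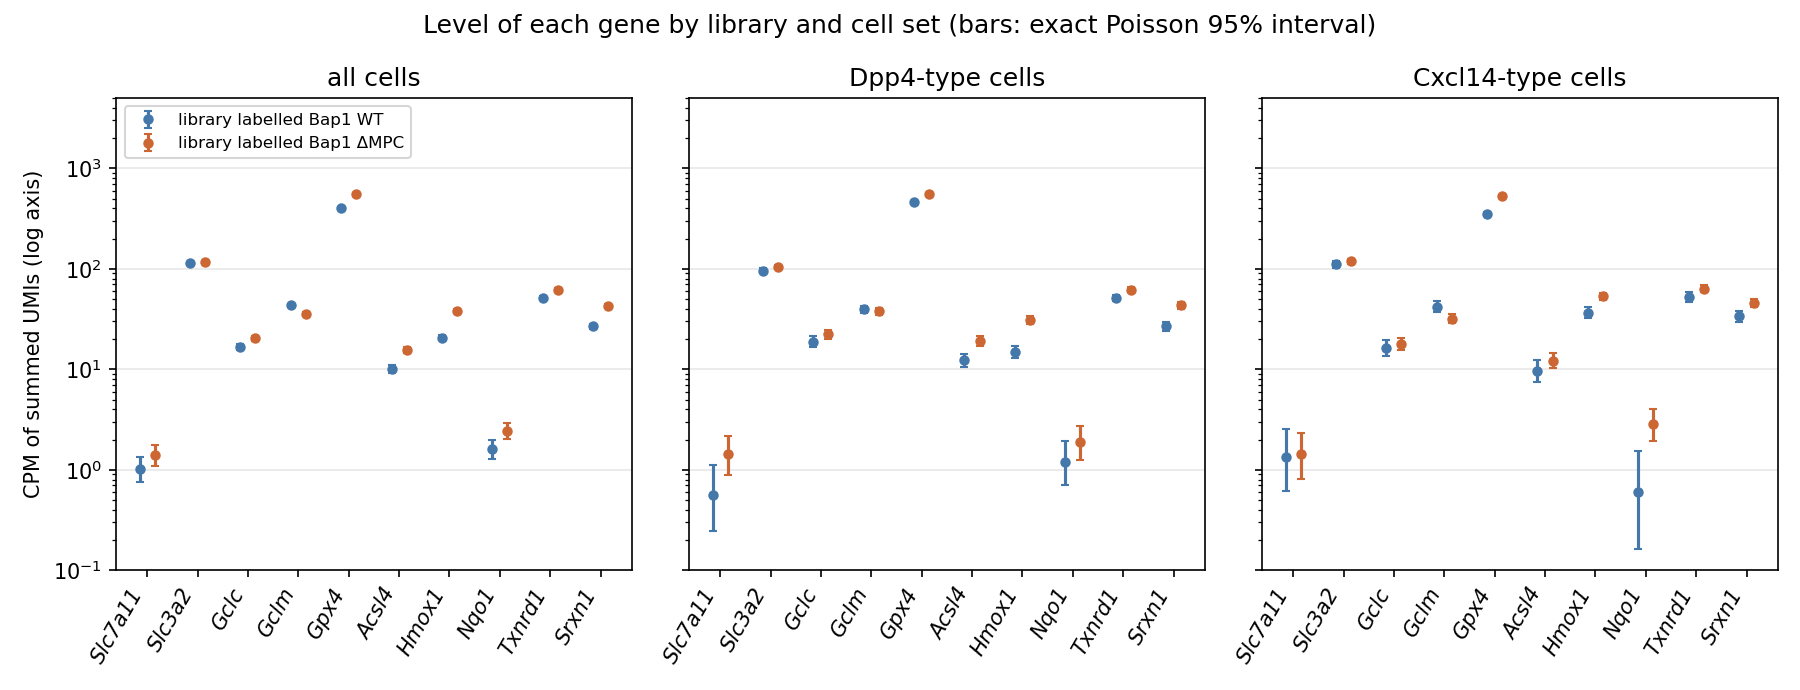
CPM of each gene in all cells, Dpp4-type cells and Cxcl14-type cells of each library, with exact Poisson 95% intervals on a log axis.

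*Slc7a11*, the cystine carrier, had the lowest level of the 10 genes in all cells. It had 52 UMIs, 1.02 CPM (0.761 to 1.34), in the *Bap1* WT-labelled library and 69 UMIs, 1.39 CPM (1.08 to 1.76), in the *Bap1* ΔMPC-labelled library. The log2 ratio was 0.45, or 1.37-fold (0.940 to 1.998), an interval that includes no difference, and 17.4% of tested genes were at least as high.

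In Dpp4-type cells *Slc7a11* had 8 UMIs, 0.567 CPM (0.245 to 1.12), in the *Bap1* WT-labelled library and 21 UMIs, 1.42 CPM (0.880 to 2.17), in the *Bap1* ΔMPC-labelled library. This 2.51-fold higher value (log2 ratio 1.33, interval 0.09 to 2.71) was matched or passed by 2.57% of tested genes in the same cells. The counts came from 5 and 9 cells, and 1 cell held 4 of the 8 UMIs in the former library and 11 of the 21 in the latter. After that cell was left out of each library, a step chosen after the counts were seen, 4 and 10 UMIs remained and the log2 ratio of 1.26 had an interval from -0.54 to 3.38. A cut of 15 marker UMIs per 10000 in place of 25 gave 19 and 35 UMIs and a log2 ratio of 0.80, below 2-fold, whereas removal of the deepest 5% of cells gave 3 and 21 UMIs and 2.66.

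In Cxcl14-type cells *Slc7a11* had 9 UMIs (1.34 CPM, 0.614 to 2.55) in the *Bap1* WT-labelled library and 16 UMIs (1.42 CPM, 0.812 to 2.31) in the *Bap1* ΔMPC-labelled library. The log2 ratio of 0.08 (-1.18 to 1.44) included 0, and its sign was negative (-0.42) once the deepest 5% of cells were left out. At a *Cxcl14* cut of 10 the counts were 0 and 16 UMIs and the log2 ratio was 1.27 with 3 counts in place of 0, a value set by that replacement. The top cell held 6 of the 9 UMIs in the former library and 5 of the 16 in the latter, and without it 3 and 11 UMIs gave a log2 ratio of 1.12 (-0.80 to 3.61). A difference in this set could thus not be told apart from none. Cells of neither type gave 1.16 and 1.36 CPM (log2 ratio 0.23, -0.51 to 0.97).

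The cells with a *Slc7a11* UMI numbered 28 (0.682%, 0.454% to 0.985%) in the *Bap1* WT-labelled library and 31 (0.708%, 0.482% to 1.004%) in the *Bap1* ΔMPC-labelled library. After each cell was thinned to 5000 UMIs the shares were 13 of 3983 (0.326%) and 15 of 4168 (0.360%), and no cell type lacking the gene was available to set a background from free RNA. Cells with 2 or more UMIs numbered 6 and 12, and the mean per positive cell was 1.86 and 2.23 UMIs. An immune marker UMI was seen in 2 of the 28 and 6 of the 31 cells, beside 386 of 4075 and 621 of 4347 cells without *Slc7a11*.

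Along the summed *Pi16*, *Sema3c*, *Anxa3* and *Efemp1* signal, *Slc7a11* had 0.572, 2.01, 0.952 and 0.339 CPM below 5, from 5 to 25, from 25 to 50 and above 50 UMIs per 10000 in the *Bap1* WT-labelled library. The same bins in the *Bap1* ΔMPC-labelled library had 0.851, 2.33, 1.94 and 0.851 CPM, so the bin from 5 to 25 had the highest value in both. In the bin from 25 to 50, 1 cell held 4 of 5 UMIs in the former library and 11 of 15 in the latter, and without it the values were 0.191 and 0.519 CPM. The bin from 5 to 25 had 1.32 and 1.61 CPM without its top cell. Near the cut itself, cells at 20 to 25 had 2 *Slc7a11* UMIs (1.31 CPM) in the *Bap1* WT-labelled library and 13 (6.75 CPM, 3.59 to 11.5, with 9 of them in 1 cell) in the *Bap1* ΔMPC-labelled library, and cells at 25 to 30 had 0 and 1.

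**Figure D2:**
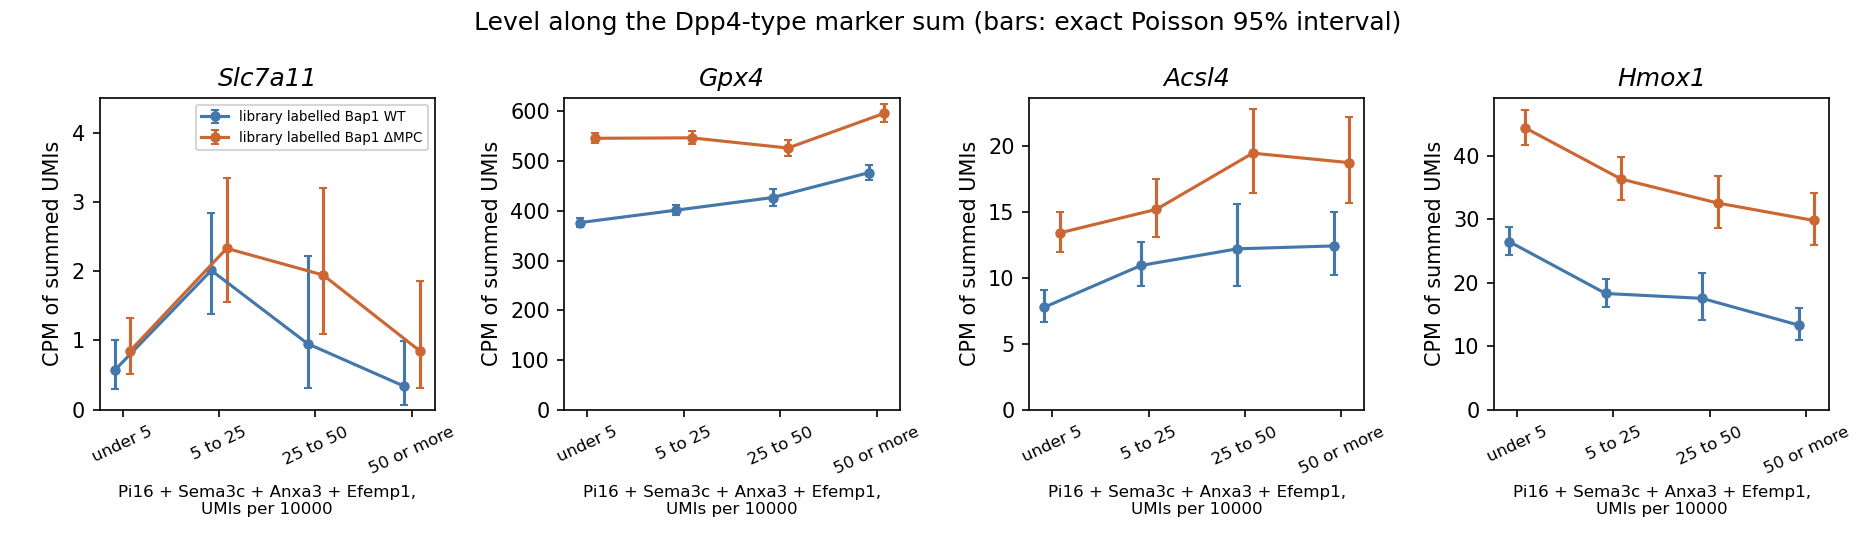
CPM of selected genes in bins of the summed *Pi16*, *Sema3c*, *Anxa3* and *Efemp1* UMIs per 10000, by library, with 95% counting intervals.

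*Slc3a2* encodes the heavy chain CD98, which carries xCT and other light chains to the membrane, and its level was far above that of *Slc7a11*. It had 113 CPM in the *Bap1* WT-labelled library and 118 in the *Bap1* ΔMPC-labelled library, a log2 ratio of 0.06 (0.00 to 0.11) that turned to -0.04 under TMM and under median-ratio scaling. In Dpp4-type cells it had 95.9 and 105 CPM (log2 ratio 0.13, 0.02 to 0.23), and in Cxcl14-type cells 111 and 119 (0.10, -0.03 to 0.23). A *Slc3a2* UMI was found in 67.5% and 65.7% of cells, and in 40.5% and 41.9% after thinning.

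Cells that held a *Slc7a11* UMI had more *Slc3a2* than the other cells of their library: 185 CPM (145 to 233) against 113 in the *Bap1* WT-labelled library, and 214 (171 to 264) against 117 in the *Bap1* ΔMPC-labelled library. These are log2 ratios of 0.72 (0.36 to 1.05) and 0.87 (0.55 to 1.18), and 23 of the 28 and 25 of the 31 cells held a *Slc3a2* UMI. The positive cells were also deeper, with median UMIs of 14226.5 against 12217 and 12742 against 11002, which CPM adjusts for. For *Txnrd1* the same ratio was 0.62 (0.05 to 1.12) in the former library and 0.06 in the latter, and for each of the other 7 members the interval included 0.

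A separate list of cystine and amino acid supply, which does not hold *Slc7a11* or *Slc3a2*, was chosen for this report like the other lists below. It had 13 tested genes, of which 6 were higher and 7 lower in the *Bap1* ΔMPC-labelled library in all cells, 0 past 2-fold, with a median log2 ratio of -0.09. In Dpp4-type cells 3 of 10 were higher and 7 lower (0 past 2-fold, median -0.45). In Cxcl14-type cells 5 of 10 were higher and 5 lower (median 0.02), and 1 was over 2-fold lower, *Slc7a7* (-1.32). These medians are to be read beside 0.10, 0.07 and 0.07 for all genes. The lists below share some genes, among them *Tfrc*, *Chac1* and *Atf3*, so a gene called in more than 1 list is the same result.

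*Gclc*, the catalytic subunit of glutamate-cysteine ligase that starts glutathione synthesis, had 16.7 CPM in the *Bap1* WT-labelled library and 20.4 in the *Bap1* ΔMPC-labelled library, a log2 ratio of 0.28 (0.15 to 0.42). The levels were 18.8 and 22.3 CPM in Dpp4-type cells (0.24, 0.00 to 0.48). In Cxcl14-type cells they were 16.4 and 18.0 CPM (0.14, -0.21 to 0.48), with -0.06 after thinning.

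*Gclm*, the modifier subunit of the same enzyme, went the other way, from 43.1 CPM in the *Bap1* WT-labelled library to 35.7 in the *Bap1* ΔMPC-labelled library (log2 ratio -0.27, -0.36 to -0.18), and 20.1% of tested genes were at least as low. Dpp4-type cells had 39.4 and 37.6 CPM (-0.07, -0.24 to 0.10), and those without *Krt7* and *Plet1* had 39.2 (36.0 to 42.7) and 34.3 (31.0 to 37.9). Cxcl14-type cells had 42.1 and 31.8 CPM (-0.40, -0.63 to -0.17), and cells of neither type had 45.1 and 36.4 (-0.31). The share of cells with a *Gclm* UMI was 39.0% and 30.5%, and after thinning 19.6% and 16.1%.

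The list of glutathione synthesis and turnover had 17 tested genes in all cells, 11 higher and 6 lower (median log2 ratio 0.15), with 1 past 3-fold and past 2-fold in each direction. *Chac1*, which degrades glutathione, had 4 UMIs in the *Bap1* WT-labelled library and 37 in the *Bap1* ΔMPC-labelled library (3.25), and *Ggt7* was lower (-2.39). Dpp4-type cells had 9 of 16 higher and 7 lower (median 0.07), 0 over 3-fold higher, 1 over 3-fold lower and 2 over 2-fold lower (*Ggt7* and *Ggt5*). Cxcl14-type cells had 12 of 17 higher and 5 lower (median 0.21), 2 over 3-fold higher (*Chac1* and *Oplah*) and 1 lower (*Ggt7*). *Chac1* had 0 and 23 UMIs in this set, so its call there rests on 3 counts in place of 0. In Dpp4-type cells it had 3 and 2 UMIs, too few to be tested.

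*Gpx4*, which reduces phospholipid hydroperoxides, had the highest level of the 10 genes, at 406.7 CPM (401.2 to 412.3) in the *Bap1* WT-labelled library and 550.3 (543.7 to 556.8) in the *Bap1* ΔMPC-labelled library. The log2 ratio was 0.44 (0.41 to 0.46), and 18% of tested genes were at least as high, a place well inside the background despite the narrow interval. It was 0.29 (0.24 to 0.34) in Dpp4-type cells, from 458 to 559.7 CPM, and 0.59 (0.52 to 0.65) in Cxcl14-type cells, from 352 to 528. Across the 4 bins of the marker sum *Gpx4* went from 376 through 401 and 427 to 477 CPM in the *Bap1* WT-labelled library, and in the *Bap1* ΔMPC-labelled library it was 546, 547, 526 and 596. Nearly all cells held a *Gpx4* UMI (97.1% and 98.3%), and after thinning 84.6% and 91.8% did.

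*Acsl4*, which activates the polyunsaturated fatty acids that become peroxidized, had 10.0 CPM in the *Bap1* WT-labelled library and 15.5 in the *Bap1* ΔMPC-labelled library (log2 ratio 0.63, 0.47 to 0.80). Thus in all cells a gene that favors ferroptosis and a gene that opposes it were both higher in the *Bap1* ΔMPC-labelled library. Of all tested genes there, 60.7% were higher and 11.6% were at least as high as *Acsl4*. In Dpp4-type cells *Acsl4* had 12.3 and 19.1 CPM (0.63, 0.35 to 0.91), and in Cxcl14-type cells 9.70 and 12.2 (0.33, -0.11 to 0.78). The shares of cells with a UMI were 11.3% and 15.5%, or 5.05% and 8.06% after thinning.

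The list of glutathione peroxidases and transferases had 6 of 21 genes higher and 15 lower in all cells (median log2 ratio -0.18), with 1 past 3-fold in each direction, 3 over 2-fold higher and 2 over 2-fold lower. *Gpx3*, the secreted peroxidase, had 224.5 and 560 CPM in the libraries labelled *Bap1* WT and *Bap1* ΔMPC (1.32), whereas *Gsta1* had 50 and 375 UMIs (2.95) and *Gstk1* was lower (-2.54). Dpp4-type cells had 5 of 21 higher and 16 lower (median -0.29), 1 and 2 past 3-fold, and 2 and 4 past 2-fold. Cxcl14-type cells had 6 of 19 higher and 13 lower (median -0.26), 1 and 1 past 3-fold, and 2 and 2 past 2-fold.

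Genes of lipid peroxidation and ferroptosis execution were higher in 13 of 15 and lower in 2 in all cells, 0 past 2-fold, with a median log2 ratio of 0.30. In Dpp4-type cells 7 of 14 were higher and 7 lower (0 past 2-fold, median -0.03). In Cxcl14-type cells 13 of 15 were higher and 2 lower (median 0.50), 2 of them over 2-fold higher, *Tfrc* (2.44, also past 3-fold) and *Acsl1* (1.09). Genes of ferroptosis suppression that act without GPX4 were 8 higher and 6 lower of 14 in all cells (median 0.10, 0 past 2-fold). The same list had 4 higher and 10 lower in Dpp4-type cells (median -0.12, 1 over 2-fold higher, *Mboat2*, 1.07) and 9 higher and 5 lower in Cxcl14-type cells (median 0.13, 1 over 2-fold higher, *Mboat1*, 1.34).

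Selenoprotein synthesis, on which GPX4 depends for its selenocysteine, had 7 of 12 genes higher and 5 lower in all cells (median log2 ratio 0.11), with 1 over 2-fold higher, *Lrp8* (1.04). In Dpp4-type cells 7 of 12 were higher and 5 lower (median 0.10), and *Lrp8* passed 3-fold (2.10). In Cxcl14-type cells 4 of 11 were higher and 7 lower (median -0.05, 0 past 2-fold). Iron handling had 12 of 19 genes higher and 7 lower in all cells (median 0.09), 1 over 2-fold higher, *Heph* (1.56). In Dpp4-type cells 8 were higher and 11 lower (median -0.07), 2 over 2-fold lower (*Slc40a1*, -1.45, and *Cp*, -1.27). In Cxcl14-type cells 9 were higher and 10 lower (median -0.01), 2 over 3-fold higher, *Tfrc* with 10 and 91 UMIs and *Heph* with 9 and 146.

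*Hmox1*, heme oxygenase 1, which releases iron from heme, had 20.7 CPM (19.5 to 22.0) in the *Bap1* WT-labelled library and 38.4 (36.7 to 40.2) in the *Bap1* ΔMPC-labelled library. The log2 ratio of 0.89, or 1.86-fold (1.72 to 2.004), was the largest of the 10 in all cells, and 7.63% of tested genes were at least as high. In Dpp4-type cells *Hmox1* had 14.9 and 31.2 CPM, 2.10-fold higher (1.07, 0.83 to 1.31), with 0.99 under median-ratio scaling and a value at the cut under TMM scaling, so the 2-fold call rests on the scaling. In Cxcl14-type cells it had 36.6 and 53.3 CPM (0.54, 0.33 to 0.76). The shares of cells with a UMI were 18.0% and 25.7%, and 8.69% and 14.3% after thinning.

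*Hmox1* is also high in macrophages, which the Lin– sort and the authors' marker filter were meant to remove. UMIs of any immune marker were found in 388 cells (9.46%) of the *Bap1* WT-labelled library and 627 (14.3%) of the *Bap1* ΔMPC-labelled library. With these cells left out, a comparison chosen after the data were seen, the log2 ratio of *Hmox1* was 0.91 in all cells, 1.08 in Dpp4-type cells and 0.60 in Cxcl14-type cells.

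*Nqo1*, a quinone reductase and NRF2 target, had 82 UMIs (1.61 CPM) in the *Bap1* WT-labelled library and 120 UMIs (2.42 CPM) in the *Bap1* ΔMPC-labelled library, a log2 ratio of 0.59 (0.17 to 1.01). In Cxcl14-type cells it had 4 UMIs (0.597 CPM, 0.163 to 1.53) and 32 UMIs (2.84 CPM, 1.94 to 4.01), 4.76-fold higher (2.25, 0.76 to 4.21), and 1.79% of tested genes were at least as high. At a *Cxcl14* cut of 2 the counts were 13 and 42 UMIs and the log2 ratio 1.26, below 3-fold, and at a cut of 10 they were 1 and 19 UMIs, 8.58-fold higher. Other markers also differed in the Cxcl14-type set, adipocyte markers from 1 to 120 UMIs (0.149 to 10.7 CPM), immune markers from 6.27 to 22.6 CPM and mural markers from 18.7 to 35.8. Cycling markers were also higher there (32.5 and 68.0 CPM), whereas muscle markers (43.1 and 13.9) and erythroid markers (23.6 and 11.4) were lower. Without cells that held an immune marker UMI the log2 ratio of *Nqo1* was 2.30, and whether it or the list genes called in this set otherwise reflect its mixture of cells was not tested. Dpp4-type cells had 17 and 28 UMIs (1.20 and 1.90 CPM, log2 ratio 0.65, -0.27 to 1.62).

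*Txnrd1*, cytosolic thioredoxin reductase, had 51.6 CPM in the *Bap1* WT-labelled library and 62.1 in the *Bap1* ΔMPC-labelled library (log2 ratio 0.27, 0.19 to 0.34). The ratio was the same in Dpp4-type cells (51.5 and 62.2 CPM, 0.27, 0.13 to 0.41) and in Cxcl14-type cells (52.5 and 63.5 CPM, 0.27, 0.09 to 0.46). *Srxn1*, sulfiredoxin, which restores oxidized peroxiredoxins, had 26.8 and 42.5 CPM (0.67, 0.57 to 0.77), and 10.8% of tested genes were at least as high. Its levels were 26.9 and 43.4 CPM in Dpp4-type cells (0.69, 0.50 to 0.88) and 33.6 and 46.0 in Cxcl14-type cells (0.45, 0.23 to 0.69). A *Srxn1* UMI was found in 25.6% and 33.1% of cells, or 11.9% and 18.7% after thinning.

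**Figure D3:**
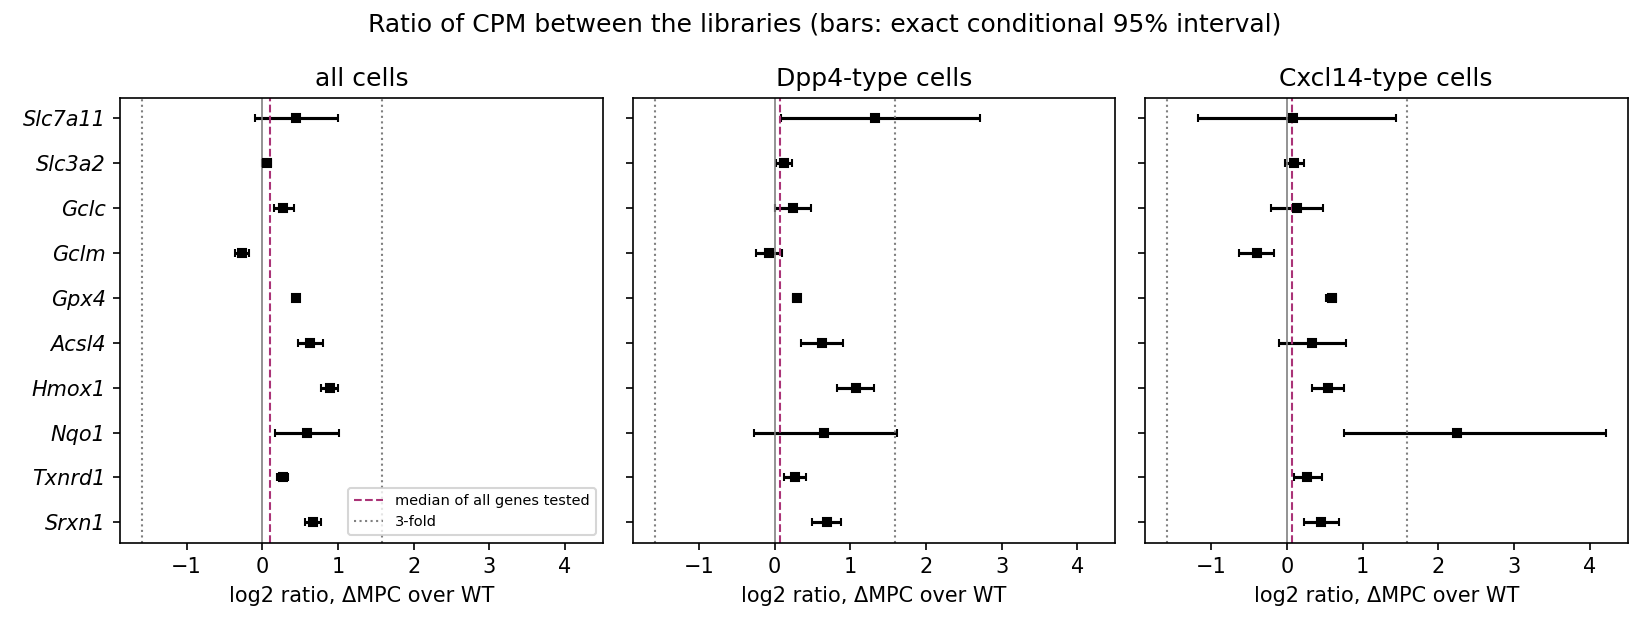
Log2 ratio of each gene between the library labelled *Bap1* ΔMPC and that labelled *Bap1* WT in the 3 cell sets, with exact conditional 95% intervals. Dotted lines mark the 3-fold cuts and the dashed line the median of all genes tested.

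NRF2 and its control genes, which regulate several of these members, had 7 of 9 higher and 2 lower in all cells (median log2 ratio 0.16), 5 and 4 in Dpp4-type cells (0.01) and 6 and 3 in Cxcl14-type cells (0.27), with 0 past 2-fold in any set. *Nfe2l2*, which encodes NRF2, had log2 ratios of 0.10, -0.26 and 0.27 in these sets. Other NRF2 targets had 16 of 23 higher and 7 lower in all cells (median 0.14, 0 past 2-fold). In Dpp4-type cells 12 of 21 were higher and 9 lower (median 0.17), 1 over 2-fold higher (*Abcc4*, 1.12) and 1 lower (*Akr1b8*, -1.58). In Cxcl14-type cells 13 of 22 were higher and 9 lower (median 0.15), 1 over 2-fold higher (*G6pdx*, 1.17).

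The thioredoxin and peroxiredoxin list had 11 of 18 genes higher and 7 lower in all cells (median log2 ratio 0.07, 0 past 2-fold) and 9 higher and 9 lower in Dpp4-type cells (median 0.00, 0 past 2-fold). In Cxcl14-type cells 10 were higher and 8 lower (median 0.17), 1 over 2-fold higher, *Sod3* (1.04). Targets of ATF4, which also drives *Slc7a11* when amino acids are scarce, had 6 of 16 higher and 10 lower in all cells (median -0.08), 2 over 2-fold higher, *Chac1* (also past 3-fold) and *Trib3* (1.46). In Dpp4-type cells 5 of 15 were higher and 10 lower (median -0.06), 1 over 2-fold higher, *Trib3* (1.21). In Cxcl14-type cells 7 of 16 were higher and 9 lower (median -0.08), 2 over 3-fold higher (*Trib3* and *Chac1*), 3 over 2-fold higher and 1 over 2-fold lower (*Aldh18a1*, 54.3 and 27.1 CPM). The *Chac1* call there, from 0 and 23 UMIs, rests on 3 counts in place of 0.

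Tissue digestion induces stress genes, and the list of dissociation genes summed to 17728 CPM in the *Bap1* WT-labelled library and 19632 in the *Bap1* ΔMPC-labelled library. Of its 14 genes 9 were higher and 5 lower in all cells (median log2 ratio 0.11), 1 over 2-fold lower, *Hspa1b* (-1.41). Dpp4-type cells had 6 higher and 8 lower (median -0.05, 0 past 2-fold). Cxcl14-type cells had 10 higher and 4 lower (median 0.12), 1 over 2-fold higher (*Atf3*, 1.41) and 2 lower, 1 of them past 3-fold (*Hspa1b*, -1.83). Whether *Hmox1*, *Srxn1* and *Txnrd1* partly reflect handling was not tested.

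Between the cell sets of the same library, 9.9% of 12218 tested genes in the *Bap1* WT-labelled library and 10.3% of 12685 in the *Bap1* ΔMPC-labelled library passed 3-fold in either direction. None of the members did, and *Slc7a11* had too few UMIs (17) to be tested in the *Bap1* WT-labelled library. *Hmox1* had the clearest difference, lower in Dpp4-type than in Cxcl14-type cells by a log2 ratio of -1.30 (-1.57 to -1.03) in the *Bap1* WT-labelled library and -0.77 (-0.95 to -0.59) in the *Bap1* ΔMPC-labelled library. *Gpx4* was higher in Dpp4-type cells by 0.38 in the former and 0.08 in the latter. *Slc7a11* had -1.24 (-2.82 to 0.30) and 0.00 (-1.01 to 1.04).

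Inside these sets the members were also compared by further markers. Dpp4-type cells with *Krt7* or *Plet1* numbered 34 in the *Bap1* WT-labelled library and 281 in the *Bap1* ΔMPC-labelled library. *Gclm* had 43.7 CPM (27.0 to 66.7) in them against 39.2 in the other Dpp4-type cells of the former library, and 48.7 (41.5 to 56.8) against 34.3 in the latter. *Txnrd1* had 16.6 CPM (7.18 to 32.8, from 8 UMIs) against 52.7 in the former and 57.6 against 63.5 in the latter. *Slc7a11* had too few UMIs in the cells with *Krt7* or *Plet1* to be read: 0 (up to 7.67 CPM) against 0.587 CPM in the former library, and 0.597 CPM (0.0723 to 2.16) against 1.66 in the latter. Among Cxcl14-type cells, those with *Wnt4*, *Pcsk2* or *Rtl4* (43 and 362) had 49.2 CPM (31.9 to 72.7) of *Hmox1* against 35.5 in the others of the *Bap1* WT-labelled library, and 66.3 (58.7 to 74.5) against 45.7 in the *Bap1* ΔMPC-labelled library. Cycling cells (53 and 108) had more *Gclm* than the others (88.9 against 42.5 CPM in the former library, 56.0 against 35.1 in the latter). The same held for *Nqo1* (8.47 against 1.51 and 6.30 against 2.31, from 6 and 9 UMIs), *Slc3a2* (159 against 113 and 152 against 117), *Gclc* (28.2 against 16.6 and 31.5 against 20.1) and *Gpx4* (624 against 404 and 608 against 548.5). *Txnrd1* was higher in the latter library (88.9, 74.1 to 105.8, against 61.3). In the former its interval included the value of the other cells (69.1, 51.1 to 91.4, against 51.3). *Hmox1* was lower in cycling cells of the latter library (21.0, 14.17 to 29.98, against 39.0). In the former library the *Hmox1* interval included the value of the other cells (15.5, 7.747 to 27.77, from 11 UMIs, against 20.8). *Srxn1* was lower in the latter library (31.5 against 42.8) but not in the former (32.5 against 26.7).

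TMM and median-ratio scaling both shifted the log2 ratios by 0.10 in all cells, and with either of them 8 members were higher and 2 lower there. Over the 6 groups given by library and cell set, the genes closest to the profile of *Slc7a11* among 12388 genes were *Tut1*, *Pomc*, *Tmem68*, *Uck2* and *Pqlc2* (Pearson r 0.991, 0.987, 0.977, 0.976 and 0.976). That profile rests on 8 to 35 UMIs per group, and with 6 groups high values of r arise among so many genes without any link.

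Promoter windows in RefSeq annotation of GRCm38.p6 were available for 8 of the 10 members (not for *Gclc* or *Hmox1*) and were read on both strands for TGACNNNGC, the core of the antioxidant response element, and TGATGNAA, a core of the amino acid response element. TGACNNNGC was present in 10.2% of 32851 windows and TGATGNAA in 3.45%, so a match is a description of the sequence and not evidence of binding. *Slc7a11* had 2 matches of TGATGNAA, at chr3:50443672-50443679 in the direction of the gene (66 to 59 bases before the start) and at chr3:50443653-50443660 on the opposite strand (47 to 40 bases before). TGACNNNGC was found in *Gclm* (chr3:122245423-122245431) and in 1 of 3 windows of *Txnrd1* (chr10:82859114-82859122), on the opposite strand in both. The 250 bases before each start are given in the direction of the gene, with capitals marking the matches, for the 3 members that held 1: *Slc7a11* (chr3:50443614-50443863, minus strand), *Gclm* (chr3:122245307-122245556, plus strand) and *Txnrd1* (chr10:82858956-82859205, plus strand).

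Slc7a11: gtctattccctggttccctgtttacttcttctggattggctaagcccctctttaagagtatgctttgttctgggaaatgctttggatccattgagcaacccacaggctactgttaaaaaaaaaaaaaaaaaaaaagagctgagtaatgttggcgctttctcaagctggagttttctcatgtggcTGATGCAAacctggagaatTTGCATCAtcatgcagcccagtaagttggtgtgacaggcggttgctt

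Gclm: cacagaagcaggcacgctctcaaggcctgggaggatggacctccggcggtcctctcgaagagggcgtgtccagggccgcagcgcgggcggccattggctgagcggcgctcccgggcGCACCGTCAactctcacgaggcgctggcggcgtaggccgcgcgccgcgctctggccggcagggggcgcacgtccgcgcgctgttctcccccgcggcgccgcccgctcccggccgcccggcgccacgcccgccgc

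Txnrd1: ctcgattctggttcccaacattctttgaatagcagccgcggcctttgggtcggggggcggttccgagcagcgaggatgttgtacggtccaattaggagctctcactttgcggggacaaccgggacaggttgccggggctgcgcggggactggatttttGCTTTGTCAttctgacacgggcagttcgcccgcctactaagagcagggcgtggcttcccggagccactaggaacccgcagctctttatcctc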

How the data were processed

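The counts are the deposited 10x count tables of the authors, 1 per genotype, with cells already gated for quality and doublets, and cells high in non-FAP markers already removed, by the authors. Upstream steps, by the submitters' processing notes, used bcl2fastq 2.20.0, FastQC 0.11.7, Cell Ranger 3.1.0 on mm10, R 3.6.1 and Seurat 3.2.1. No doublet caller was run here. An alternative leaves out the deepest 5% of cells. CPM of a gene is its UMI total in a cell set over the total of all genes there. Intervals are exact Poisson (CPM), exact conditional binomial (ratios) and Clopper-Pearson (shares), at 95%. A gene was called past a fold cut with at least 20 UMIs over both libraries, with 0 replaced by 3 counts. The 10 genes follow a rule that names them, and they and the lists were chosen with earlier results of these data known. 1 list gene (*Trim16l*) was not in the tables. Gene positions are from GENCODE vM21 and promoter windows from RefSeq. The code was tested on simulated data. Tools: Python 3.11.15, numpy 2.4.6, scipy 1.17.1, matplotlib 3.10.9, R 4.3.3 and edgeR 4.0.16 (TMM factors only).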

Additional observations from a re-analysis of the deposited data

How the results depend on the processing

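A ratio is said to have moved when an alternative put it outside the 95% interval of the main value, and a count when it changed by over 1.5 times. No *Slc7a11* ratio with UMIs in both libraries moved in this sense, but its intervals are wide. Over 13 alternatives per cell set, its ratio in Dpp4-type cells was past 2-fold in 12 and past 3-fold in 3. In Cxcl14-type cells it kept its sign in 12 of 13 and passed 2-fold in 2. These tallies count ratios without the minimum of 20 UMIs, so they are not calls. In Dpp4-type cells, a cut of 50 (3 and 6 UMIs), thinning (2 and 9) and removal of the top cell (4 and 10) fell below that minimum. So did both Cxcl14-type ratios past 2-fold, with 0 and 16 UMIs at a *Cxcl14* cut of 10 and 3 and 11 without the top cell. *Cxcl14* cuts leave the Dpp4-type set as it was, and no marker cut changes all cells, so these repeat the main ratio. In all cells the log2 ratio ranged from 0.35 to 0.55 (main 0.45), in Dpp4-type cells from 0.80 to 2.66 (main 1.33) and in Cxcl14-type cells from -0.42 to 1.27 (main 0.08). The value of 1.27, at a *Cxcl14* cut of 10 with 0 and 16 UMIs, rests on 3 counts in place of 0, so whether this ratio moved cannot be told. Of these, the alternatives without cells holding an immune marker UMI and without the cell with the most UMIs of the gene were chosen after the data were seen. The number of genes past 3-fold was 776 in all cells, 440 in Dpp4-type cells and 655 in Cxcl14-type cells. It moved to 2228, 1834 and 2309 with no minimum beyond 1 UMI and to 385, 167 and 232 at 100 or more UMIs, because more or fewer genes were tested, and to 1768, 1108 and 1443 at a fold over 2. Among the other members 12 ratios left their main interval, 11 of them under TMM or median-ratio scaling, which shifted the ratios by up to 0.10. *Slc3a2* in all cells went from 0.06 to -0.04 in this way. The other was *Gclc* in Dpp4-type cells, 0.57 at a cut of 50 against 0.24, and the cause was not tested. Changes inside wide intervals also touched calls or signs: *Nqo1* in Cxcl14-type cells went from 2.25 to 1.26 at a *Cxcl14* cut of 2, which ended its 3-fold call, and *Gclc* in Cxcl14-type cells went from 0.14 to -0.06 after thinning. *Hmox1* in Dpp4-type cells was past 2-fold in 11 of 13, which include the *Cxcl14* cuts that repeat its main ratio. No paired analysis was possible because there is 1 library for each genotype and their cells have no pairing.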
